A study of Homo sapiens with 12 samples.

Results

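The transcripts of 34 human genes of cholesterol and fatty acid synthesis were followed in 2 multiple myeloma cell lines after a short exposure to IT848. The 34 genes were taken by symbol from a list of pathway genes, out of 25680 symbols in the deposited tables. Of these, 24 belong to the sterol pathway and 10 to fatty acid synthesis, elongation, desaturation or activation. All 34 passed the filter on low counts and were among the 16782 genes tested. RNA was sequenced from U266 and MM.1S cells, both established lines of malignant plasma cells, each kept for 6 h with the solvent DMSO or with 6 µM IT848. The labels describe IT848 as an inhibitor of NF-kB, a family of transcription factors active in many myelomas. The 4 groups (U266 DMSO, U266 IT848, MM.1S DMSO, MM.1S IT848) held 3 libraries each. The culture medium was RPMI and contained bovine serum, which itself supplies cholesterol and fatty acids. Each group is 1 line, so a difference between the lines is a difference between these lines alone. Nothing in the labels ties the 3 libraries of each group to separate cultures, and p-values measure only the spread between them, which may be technical.

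Cholesterol is built from acetyl-CoA through mevalonate, isoprenoid diphosphates and squalene, and the first cyclic product, lanosterol, is then trimmed in many steps. The genes of this route are switched on together by SREBF2, a membrane-bound transcription factor. When membrane cholesterol is low, the escort protein SCAP carries SREBF2 from the endoplasmic reticulum to the Golgi, where proteases free its active part. When cholesterol is ample, INSIG1 and INSIG2 hold SCAP back. INSIG1 is itself a target of this factor, so its transcript is a common readout of the pathway. Fatty acid synthesis starts from citrate, runs through malonyl-CoA to palmitate, and continues with elongases and desaturases. Plasma cells make membranes for a large secretory apparatus and draw on both routes.

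Promoter sequence is shown first for 5 members, chosen because the results turn on them. MSMO1, MVK and INSIG1 rose in MM.1S, SREBF2 encodes the pathway's transcription factor, and SCD fell in both lines. The sequences are the 250 bases before the annotated start, 5′ to 3′ on the gene's strand, from RefSeq (GRCh38.p14). Capitals mark CCAAT boxes on either strand (CCAAT or ATTGG), the site of the factor NF-Y, and the sterol regulatory element of SREBF2, searched as TCACNCCAC on both strands.
MSMO1 (chr4:165327419-165327668, plus strand): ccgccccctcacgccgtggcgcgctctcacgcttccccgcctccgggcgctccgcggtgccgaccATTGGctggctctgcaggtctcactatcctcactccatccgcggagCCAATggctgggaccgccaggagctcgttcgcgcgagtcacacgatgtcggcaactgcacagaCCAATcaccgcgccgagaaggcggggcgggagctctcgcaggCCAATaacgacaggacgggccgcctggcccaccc
MVK (chr12:109573544-109573793, plus strand): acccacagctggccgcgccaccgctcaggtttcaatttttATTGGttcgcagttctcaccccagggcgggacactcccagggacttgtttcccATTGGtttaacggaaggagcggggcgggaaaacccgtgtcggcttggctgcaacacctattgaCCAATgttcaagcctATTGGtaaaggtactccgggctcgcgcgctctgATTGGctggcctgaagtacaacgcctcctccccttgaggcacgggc
INSIG1 (chr7:155297628-155297877, plus strand): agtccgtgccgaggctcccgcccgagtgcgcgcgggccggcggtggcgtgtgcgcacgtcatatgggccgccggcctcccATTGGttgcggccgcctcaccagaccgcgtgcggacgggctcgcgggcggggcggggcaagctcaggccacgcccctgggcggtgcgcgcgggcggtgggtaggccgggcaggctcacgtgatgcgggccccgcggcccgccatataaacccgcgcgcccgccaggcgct
SREBF2 (chr22:41832855-41833104, plus strand): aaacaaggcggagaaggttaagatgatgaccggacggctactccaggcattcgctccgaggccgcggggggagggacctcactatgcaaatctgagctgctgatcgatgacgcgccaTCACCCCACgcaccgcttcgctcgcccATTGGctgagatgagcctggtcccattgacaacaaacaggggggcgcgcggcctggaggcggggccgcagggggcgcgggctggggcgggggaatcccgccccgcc
SCD (chr10:100346983-100347232, plus strand): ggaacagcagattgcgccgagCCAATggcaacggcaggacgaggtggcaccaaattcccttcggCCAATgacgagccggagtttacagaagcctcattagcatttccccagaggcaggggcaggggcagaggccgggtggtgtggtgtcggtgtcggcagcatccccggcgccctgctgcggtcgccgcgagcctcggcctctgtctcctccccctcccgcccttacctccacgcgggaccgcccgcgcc

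The MVK window held 5 CCAAT boxes and the MSMO1 window 4. SCD had 2, and INSIG1 and SREBF2 had 1 each. In SREBF2 the sterol regulatory element spanned positions −133 to −125 relative to the start, and the CCAAT box −106 to −102. RefSeq gave 45 windows of 300 bases (250 before to 50 after a start) for 30 of the 34 members, some with several starts. The other 4 members are ACAT2, FASN, FDFT1 and SQLE. A CCAAT box was found in 26 of the 45 windows (57.8%), against 34.6% of all 35116 windows. The sterol regulatory element in this spelling was found in 2 windows (4.44%), of SREBF2 and ACSL1, against 1.13% of all windows. An antioxidant response element, searched as TGACNNNGC on both strands, was in 5 windows (11.1%) against 13.3% of all windows. The canonical heat shock element, searched on both strands, was in 0 windows against 0.49% of all. Of the 14 windows of sterol members that rose in MM.1S, 8 held a CCAAT box (57.1%). Among the 14 windows of the other sterol members the count was 9 (64.3%). Some genes, such as IDI1 and GGPS1, have several windows, and windows of the same gene can overlap, as for ACLY. All these shares are thus of windows and not of genes. These matches describe letters in a window and show neither binding nor its absence.

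Transcript counts summed to between 50627690 and 72039748 per library, with 18259 to 20966 genes detected. A read was counted for each transcript it overlapped and counts were summed per gene, so levels of different genes are compared below only as FPKM, which is scaled to transcript length and library size. Levels of 1 gene across libraries are given as CPM, counts scaled to library size with TMM, a factor that evens out library composition. All 6 plasma cell markers checked (IRF4, PRDM1, XBP1, SDC1, TNFRSF17 and MZB1) were above 1 CPM in every group, as the labelled cell type has them. A pair of libraries stood apart by carrying reads of the other line. In U266 IT848 replicate 1, all 14 genes picked for a high MM.1S and a near-0 U266 DMSO level were detected, at 0.916% of their MM.1S level, against 0.0844% and 0.0817% in replicates 2 and 3. In MM.1S DMSO replicate 2, all 40 genes picked for a high U266 and a near-0 MM.1S IT848 level were detected, at 0.409% of their U266 level, against 0.0414% and 0.0733% in replicates 1 and 3. Calls among the 34 genes that were lost without these libraries are given with the log2 change and adjusted p of that smaller fit. Agreement of replicates was measured as a chi-square of counts per degree of freedom, which is lower in better agreement. MM.1S IT848 replicate 3 agreed least, at 28.0 with replicate 1 and 11.5 with replicate 2. Other pairs within a group ran from 2.07 to 8.06.

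FDPS, which makes farnesyl diphosphate, was the highest of the 24 sterol genes per transcript length in both untreated lines, with 52.4 ± 1.23 FPKM in U266 and 74.8 ± 1.30 FPKM in MM.1S (mean ± SD of 3 libraries). In U266 it was followed by PMVK, the phosphomevalonate kinase, at 43.6 ± 1.66 FPKM, and in MM.1S by LBR, a sterol reductase of the inner nuclear membrane, at 44.4 ± 0.447 FPKM. The lowest sterol members were STARD4, a cytosolic sterol carrier, in U266 (3.05 ± 0.0511 FPKM) and MVK, the mevalonate kinase, in MM.1S (2.88 ± 0.169 FPKM). The median over the 24 sterol genes was 10.8 FPKM in U266 and 10.9 FPKM in MM.1S. Among the 10 fatty acid genes, ACLY, which cleaves citrate to cytosolic acetyl-CoA, was highest in U266 (20.1 ± 0.255 FPKM), and SCD, the stearoyl-CoA desaturase, was highest in MM.1S (26.6 ± 0.380 FPKM). FDPS and HSD17B7 have pseudogene copies, and how reads with several alignments were counted is not given in the sources used here, so their levels are uncertain.

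**Figure D1:**
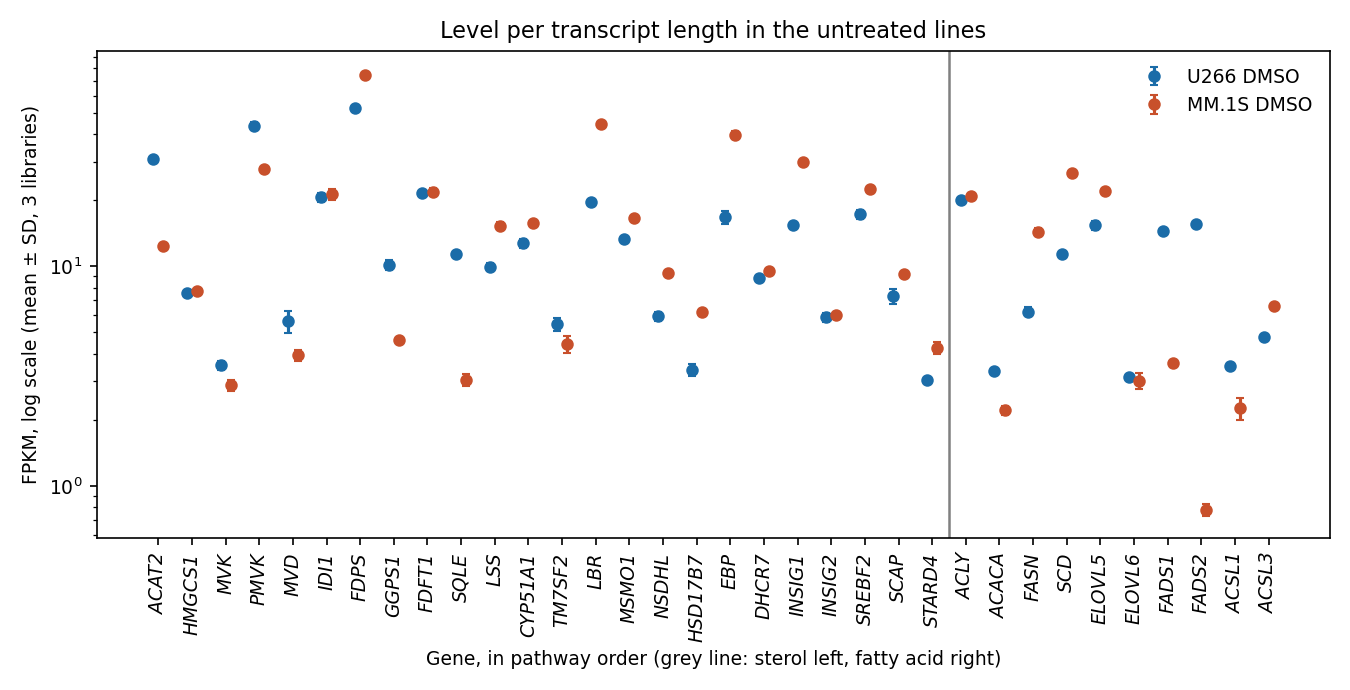
Level of each of the 34 genes in the DMSO libraries, as deposited FPKM of its most counted transcript on a log scale. Points are means and bars SDs of 3 libraries, blue for U266 and orange for MM.1S. FADS2 lies at 15.6 FPKM in U266 and 0.778 FPKM in MM.1S, the widest gap between the lines among these genes.

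The untreated lines differed at most of these genes. Under DMSO, 13 of the 24 sterol members were higher and 7 lower in MM.1S than in U266, and 5 of the 10 fatty acid members were higher and 4 lower. Over all genes tested, 40.6% were higher and 42.1% lower in MM.1S, so the members' shares are near the background. The 8 members with the largest differences are named here. FADS2, the delta-6 desaturase that starts the route to long polyunsaturated fatty acids, had 139, 131 and 137 CPM in the U266 DMSO libraries and 4.94, 4.53 and 4.34 CPM in those of MM.1S (log2 difference MM.1S minus U266 −4.88 ± 0.06, adjusted p 8.8e-17). FADS1, the delta-5 desaturase encoded beside it, had 63.00, 61.8 and 63.98 against 15.7, 16.7 and 15.8 CPM (−1.97 ± 0.05, adjusted p 1.7e-14). Both desaturases of this locus were thus far lower in MM.1S, with no overlap between libraries. Exons of the pair overlap on opposite strands by 490 bases in the GENCODE 29 annotation, and the strand setting of the counting is not given in the sources used here, so reads of either may have been counted for the other. The FADS2 counts also fell on its transcripts in different proportions. Transcript NM_004265 held 0.952 ± 0.0157 of the counts of the most counted transcript, NM_001281502, in U266 DMSO and 0.449 ± 0.0152 in MM.1S DMSO (mean ± SD of 3 libraries).

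SQLE, the squalene epoxidase, was also lower in MM.1S, at 33.3, 33.4 and 33.7 CPM in U266 and 8.51, 9.56 and 9.45 CPM in MM.1S (−1.87 ± 0.07, adjusted p 1.3e-12). ACAT2, the cytosolic thiolase that condenses acetyl-CoA, had 46.99, 46.8 and 47.9 against 18.8, 19.8 and 19.2 CPM (−1.29 ± 0.05, adjusted p 6.7e-12). Of its 4299 exonic bases, 397 overlap TCP1 and 1141 overlap SOD2, both on the opposite strand. Under DMSO, TCP1 had a mean of 444.4 CPM in U266 and 184.1 CPM in MM.1S, and SOD2 64.94 and 34.06 CPM. Reads of these genes may have been counted for ACAT2. The other 4 members named here were higher in MM.1S. EBP, the sterol isomerase, had 19.8, 17.7 and 20.03 CPM in U266 and 44.7, 48.2 and 45.7 CPM in MM.1S (1.27 ± 0.07, adjusted p 1.5e-10). SCD had 60.2, 61.8 and 62.9 against 148, 144 and 147 CPM (1.25 ± 0.05, adjusted p 2.5e-12). FASN, the fatty acid synthase, had 53.4, 49.2 and 53.2 against 126, 122 and 118 CPM (1.23 ± 0.07, adjusted p 2.8e-10), and its libraries did not overlap between the lines. LBR had 145, 152 and 145 against 338, 337 and 348 CPM (1.21 ± 0.04, adjusted p 6.8e-13). By role, 5 of the 8 mevalonate genes had lower levels in MM.1S and 1 a higher level. Of the 11 genes from squalene to cholesterol, 8 were higher and 2 lower, and 4 of the 5 regulator and transport genes were higher. The shares over all genes tested were 40.6% higher and 42.1% lower. With so few genes per role, these counts are descriptions. HMGCS1, IDI1, FDFT1, INSIG2 and ELOVL6 were not called between the untreated lines, with log2 differences from −0.03 ± 0.06 (ELOVL6) to 0.07 ± 0.07 (IDI1).

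IT848 had small effects on these genes, of opposite balance in the sterol and fatty acid routes of MM.1S. In MM.1S, 11 of the 24 sterol genes rose and 2 fell, while 1 of the 10 fatty acid genes rose and 4 fell. In U266, 1 sterol gene rose and 3 fell, and none of the fatty acid genes rose while 5 fell. Called genes had absolute log2 changes from 0.13 to 0.62 in MM.1S and from 0.19 to 0.32 in U266. Over all genes tested, 18.7% rose and 19.6% fell in MM.1S, and 4.03% rose and 4.98% fell in U266. The median log2 fold change of the sterol genes was 0.15 in MM.1S and −0.04 in U266, and that of the fatty acid genes −0.08 and −0.21. All genes tested had medians of −0.01 in MM.1S and 0.01 in U266. All 10 fatty acid genes had estimates below 0 in U266, 8 of them at an unadjusted p below 0.05, and DESeq2 called 8 lower and 0 higher. In bulk RNA, fewer cells of a type and less RNA per cell cannot be told apart.

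**Figure D2:**
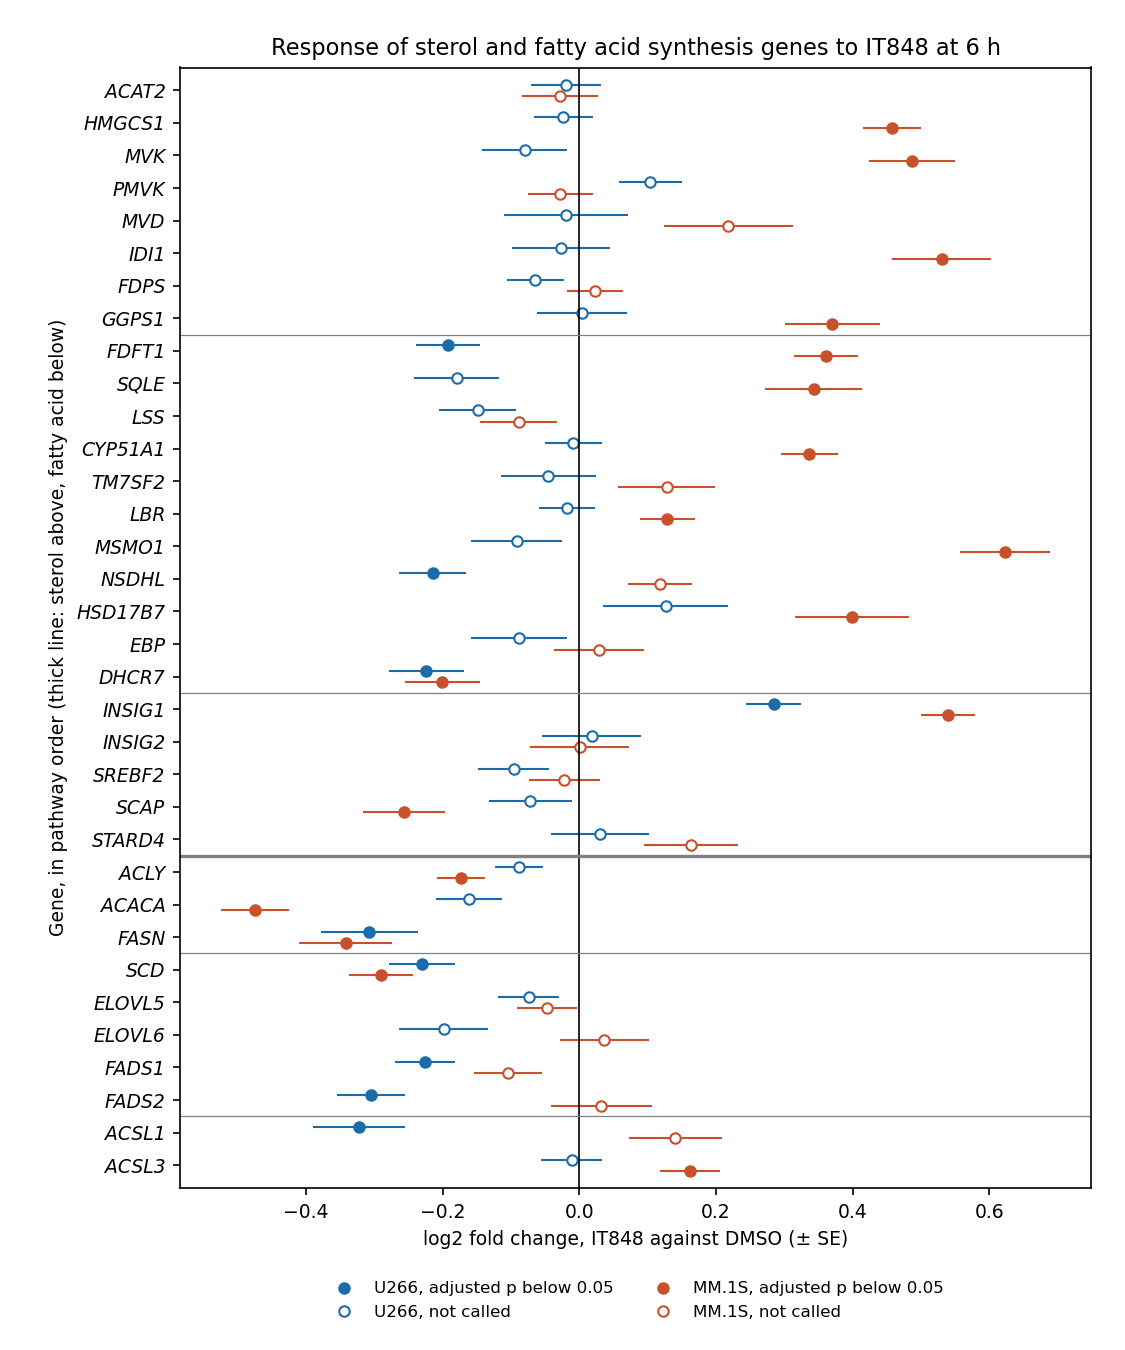
Log2 fold change of each of the 34 genes, IT848 against DMSO, with its SE, in U266 (blue) and MM.1S (orange). Filled points passed an adjusted p below 0.05. In MM.1S the filled sterol points lie mostly right of 0, up to 0.62 for MSMO1, and the fatty acid points ACLY, ACACA, FASN and SCD lie left of it, down to −0.47 for ACACA.

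Separation of the libraries was also counted without a model. In MM.1S, all 3 IT848 libraries lay above all 3 DMSO libraries for 14 of the 24 sterol genes and below them for 2, and for fatty acid genes above for 1 and below for 5 of 10. In U266 the sterol counts were 3 above and 7 below, and the fatty acid counts 0 above and 8 below. Over all genes tested, such a separation was seen upward for 22.4% and downward for 24.9% in MM.1S, and for 14.3% and 14.6% in U266. The median of the 24 sterol genes, taken in each library relative to the DMSO mean, was 0.14, 0.20 and 0.12 in the MM.1S IT848 libraries, against −0.02 to 0.02 in the DMSO libraries. The median of the fatty acid genes was −0.23, −0.16 and −0.21 in the U266 IT848 libraries, against −0.01 to 0.01 under DMSO. The other shifts were smaller. Fatty acid medians in MM.1S were −0.05, −0.07 and −0.13 under IT848, against −0.02 to 0.03 under DMSO. Sterol medians in U266 were −0.07, −0.05 and −0.05, against −0.01 to 0.02.

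**Figure D3:**
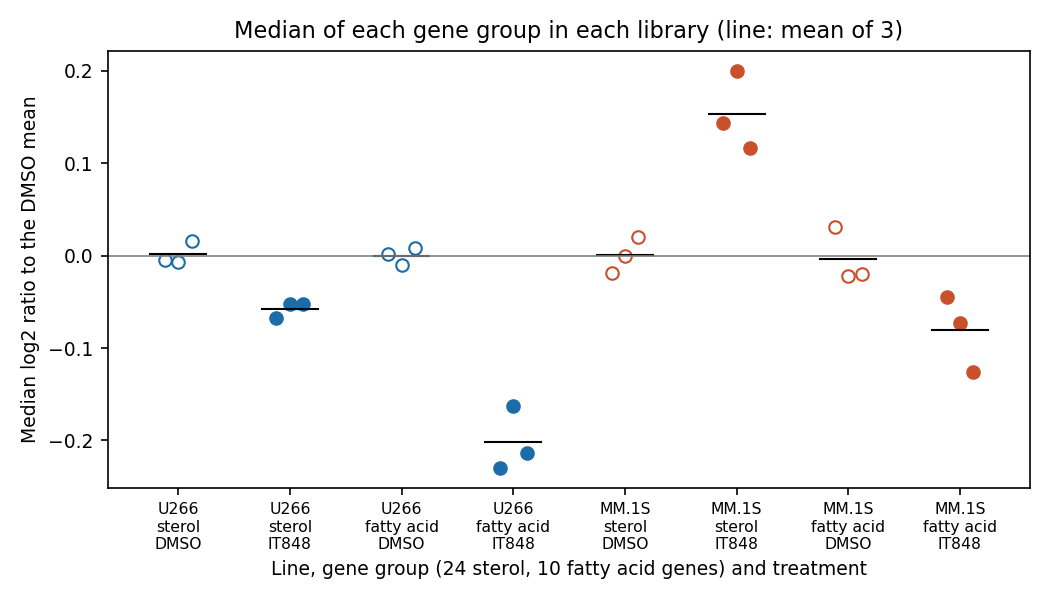
Median log2 ratio to the DMSO mean of the line, over 24 sterol or 10 fatty acid genes, in each of the 12 libraries. Open points are DMSO and filled points IT848 libraries, and the line is the mean of 3. The sterol medians of MM.1S lie above 0 after IT848 (0.12 to 0.20). The fatty acid medians after IT848 lie below 0 in both lines, at −0.23 to −0.16 in U266. In MM.1S they lie nearer 0, at −0.13 to −0.05, against −0.02 to 0.03 under DMSO.

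The mevalonate steps rose in MM.1S at 4 of 8 genes (HMGCS1, MVK, IDI1 and GGPS1), and none fell. The shares over all genes tested in that line were 18.7% higher and 19.6% lower. With a smooth trend over transcript length taken out of each library, the 4 were still called higher and 3 others were called lower, ACAT2 (−0.14, adjusted p 0.035), PMVK (−0.18, adjusted p 0.0073) and FDPS (−0.09, adjusted p 0.021). In U266 none of the 8 was called in either direction by edgeR or DESeq2, and 1 had an unadjusted p below 0.05 upward. HMGCS1 encodes the cytosolic synthase that makes HMG-CoA, the substrate of the rate-limiting reductase. It was at 84.4, 84.7 and 86.1 CPM in the DMSO libraries and 122, 115 and 113 CPM in the IT848 libraries of MM.1S, a rise of 0.46 ± 0.04 on the log2 scale (adjusted p 1.5e-06). In U266 its values were 79.9, 81.03 and 83.5 CPM under DMSO and 77.2, 81.5 and 81.8 CPM under IT848 (−0.02 ± 0.04, adjusted p 0.83). The MM.1S groups were far apart, with every IT848 library above every DMSO library, while the U266 groups overlapped.

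MVK, which phosphorylates mevalonate and whose 5 CCAAT boxes are shown above, was at 16.96, 17.7 and 19.3 CPM in the DMSO libraries and 25.5, 25.2 and 24.9 CPM in the IT848 libraries of MM.1S (0.49 ± 0.06, adjusted p 3.1e-05). Its U266 values were 22.2, 22.4 and 20.6 CPM under DMSO and 20.1, 19.7 and 21.9 CPM under IT848 (−0.08 ± 0.06, adjusted p 0.53). The groups were apart in MM.1S and overlapped in U266. Exons of MVK overlap by 306 bases those of MMAB on the opposite strand, which was at 0.12 ± 0.10 in MM.1S (adjusted p 0.37).

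IDI1 interconverts the isopentenyl and dimethylallyl diphosphates. It had 43.9, 44.1 and 49.2 CPM under DMSO and 59.2, 65.3 and 73.6 CPM under IT848 in MM.1S (0.53 ± 0.07, adjusted p 5.2e-05). Its U266 values were 42.4, 46.1 and 41.9 CPM under DMSO and 42.4, 43.5 and 42.1 CPM under IT848 (−0.03 ± 0.07, adjusted p 0.89). The MM.1S IT848 libraries were all above the DMSO libraries but spread more widely, with replicate 3 highest. IDI2-AS1, which overlaps IDI1 by 643 exonic bases on the opposite strand, moved alike in MM.1S (0.46 ± 0.08, adjusted p 0.00063), and reads of the pair may have been shared.

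GGPS1 makes geranylgeranyl diphosphate, the lipid anchor of many small GTPases. It stood at 24.99, 25.5 and 25.7 CPM under DMSO and 29.8, 32.4 and 36.3 CPM under IT848 in MM.1S (0.37 ± 0.07, adjusted p 0.00078) and at 54.1, 58.97 and 53.1 CPM under DMSO and 53.1, 54.8 and 58.7 CPM under IT848 in U266 (0.0041 ± 0.07, adjusted p 0.99). The groups were separate in MM.1S and overlapped in U266. TBCE, which shares 1422 exonic bases with GGPS1 on the same strand, was also higher in MM.1S (0.24 ± 0.05, adjusted p 0.0014). The 4 mevalonate genes not called in MM.1S were ACAT2 (−0.03 ± 0.06), PMVK (−0.03 ± 0.05), FDPS (0.02 ± 0.04) and MVD, the diphosphomevalonate decarboxylase (0.22 ± 0.09, adjusted p 0.084). The 3 IT848 libraries of MVD were above the 3 DMSO libraries in MM.1S all the same.

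From squalene to cholesterol, 6 of 11 genes rose in MM.1S (FDFT1, SQLE, CYP51A1, LBR, MSMO1 and HSD17B7) and DHCR7 fell. In U266, FDFT1, NSDHL and DHCR7 fell and none of the 11 rose by edgeR or DESeq2, with none upward at an unadjusted p below 0.05 either. The shares over all genes tested were 18.7% higher and 19.6% lower in MM.1S, and 4.03% and 4.98% in U266. FDFT1, the squalene synthase at the branch into sterols, was called in opposite directions in the 2 lines. Its libraries read 523, 545 and 578 CPM under DMSO and 668, 702 and 742 CPM under IT848 in MM.1S (0.36 ± 0.05, adjusted p 3.3e-05). In U266 they read 539.6, 528 and 523 CPM under DMSO and 465, 449.7 and 478 CPM under IT848 (−0.19 ± 0.05, adjusted p 0.017). No library of one treatment overlapped the other in either line. The fall in U266 was not called without the 2 libraries with reads of the other line (−0.19, adjusted p 0.11). With single libraries left out, it was not called in 5 fits (−0.16 to −0.20, adjusted p 0.066 to 0.11). These were the fits without U266 DMSO replicate 1, 2 or 3, and without U266 IT848 replicate 1 or 2.

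MSMO1, the methyl sterol monooxygenase that removes methyl groups after lanosterol, showed the largest change of the 34 genes in either line. It had 71.2, 73.9 and 74.01 CPM under DMSO and 102, 109 and 127 CPM under IT848 in MM.1S (0.62 ± 0.07, adjusted p 5.2e-06). The lowest IT848 library lay well above the highest DMSO library. The U266 libraries had 58.8, 57.7 and 55.5 CPM under DMSO and 51.05, 54.98 and 55.3 CPM under IT848 (−0.09 ± 0.07, adjusted p 0.5). All 3 U266 IT848 libraries were below the DMSO libraries, by less than the test could call.

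SQLE oxidises squalene, another control point of the route. Its values were 8.51, 9.56 and 9.45 CPM under DMSO and 12.4, 11.6 and 10.9 CPM under IT848 in MM.1S (0.34 ± 0.07, adjusted p 0.0016) and 33.3, 33.4 and 33.7 CPM under DMSO and 27.5, 30.6 and 30.5 CPM under IT848 in U266 (−0.18 ± 0.06, adjusted p 0.098). IT848 libraries were all higher than DMSO libraries in MM.1S and all lower in U266. CYP51A1, the lanosterol demethylase, had 100.03, 100.1 and 98.3 CPM under DMSO and 124, 127 and 127 CPM under IT848 in MM.1S (0.34 ± 0.04, adjusted p 2.3e-05). U266 values were 74.99, 80.8 and 81.3 CPM under DMSO and 79.8, 79.9 and 76.1 CPM under IT848 (−0.01 ± 0.04, adjusted p 0.95), and the groups overlapped. HSD17B7, a 3-ketosteroid reductase of the demethylation complex, had 9.56, 9.02 and 9.76 CPM under DMSO and 10.97, 12.9 and 13.6 CPM under IT848 in MM.1S (0.40 ± 0.08, adjusted p 0.0017). Its U266 values were 5.27, 5.24 and 4.69 CPM under DMSO and 5.62, 5.42 and 5.55 CPM under IT848 (0.13 ± 0.09, adjusted p 0.5). It was the one gene of these 11 with all IT848 libraries above all DMSO libraries in both lines. LBR rose by 0.13 in MM.1S (SE 0.04, adjusted p 0.021), and was of the same size but not called without the 2 libraries with reads of the other line (0.13, adjusted p 0.053). The call was also lost without MM.1S DMSO replicate 1 or 2, or MM.1S IT848 replicate 2 (0.12, adjusted p 0.067 to 0.076).

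NSDHL, which works with MSMO1 on the methyl groups of the ring, had 18.8, 18.5 and 19.9 CPM under DMSO and 16.4, 16.2 and 16.7 CPM under IT848 in U266 (−0.21 ± 0.05, adjusted p 0.012). Its MM.1S values were 31.00, 29.8 and 31.1 CPM under DMSO and 33.2, 33.6 and 32.9 CPM under IT848 (0.12 ± 0.05, adjusted p 0.061). Libraries were separate in both lines, downward in U266 and upward in MM.1S, the latter not called. DHCR7, the sterol reductase of a final step to cholesterol, was lower after IT848 in both lines. It had 45.5, 46.03 and 47.9 CPM under DMSO and 39.2, 38.9 and 41.3 CPM under IT848 in U266 (−0.22 ± 0.05, adjusted p 0.018). MM.1S values were 51.97, 49.8 and 50.9 CPM under DMSO and 47.1, 45.1 and 40.6 CPM under IT848 (−0.20 ± 0.05, adjusted p 0.0097). Both lines had every IT848 library below every DMSO library. Without the 2 libraries with reads of the other line, the U266 changes of NSDHL (−0.21, adjusted p 0.068) and DHCR7 (−0.21, adjusted p 0.088) were about as large and not called. Both U266 calls were also lost with U266 DMSO replicate 3 or IT848 replicate 2 left out alone (adjusted p 0.060 to 0.090). That of DHCR7 was lost without U266 IT848 replicate 1 too (adjusted p 0.065). Without MM.1S IT848 replicate 3, DHCR7 was at −0.13 in MM.1S (adjusted p 0.054). LSS, TM7SF2 and EBP were called in neither line.

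Among the regulators, INSIG1 rose in both lines and was the one member of the 34 to do so. In MM.1S it had 257, 263 and 269 CPM under DMSO and 388, 381 and 377 CPM under IT848, a change of 0.54 ± 0.04 (adjusted p 1.5e-07). In U266 it had 137, 134 and 127 CPM under DMSO and 159, 158 and 167 CPM under IT848, a change of 0.28 ± 0.04 (adjusted p 0.00032). In both lines all IT848 libraries were above all DMSO libraries. The call held in each of the alternatives run, with log2 changes of 0.26 to 0.31 in U266 when single libraries were left out.

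INSIG2, the second SCAP anchor, had 15.4, 16.1 and 15.5 CPM under DMSO and 15.1, 16.96 and 14.99 CPM under IT848 in MM.1S, a change of 0.0006 ± 0.07. Its U266 values were 14.1, 15.5 and 15.3 CPM under DMSO and 14.9, 16.5 and 14.1 CPM under IT848 (0.02 ± 0.07). Its groups overlapped in both lines. SREBF2, whose promoter is shown above, had 265.6, 261 and 258 CPM under DMSO and 275, 263 and 235 CPM under IT848 in MM.1S (−0.02 ± 0.05, adjusted p 0.78). The U266 libraries had 196, 189 and 205 CPM under DMSO and 183, 180.2 and 189 CPM under IT848 (−0.10 ± 0.05, adjusted p 0.33). The transcript of the pathway's transcription factor was thus not called in either line, while several of the genes it is known to drive were. SCAP, the escort protein, had 39.1, 40.2 and 38.9 CPM under DMSO and 34.8, 32.5 and 31.6 CPM under IT848 in MM.1S (−0.26 ± 0.06, adjusted p 0.0038), with every IT848 library below the DMSO libraries. U266 values were 32.6, 28.1 and 31.7 CPM under DMSO and 30.4, 28.02 and 29.4 CPM under IT848 (−0.07 ± 0.06, adjusted p 0.57), with overlap. STARD4 was not called in either line (0.16 ± 0.07 in MM.1S and 0.03 ± 0.07 in U266).

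**Figure D4:**
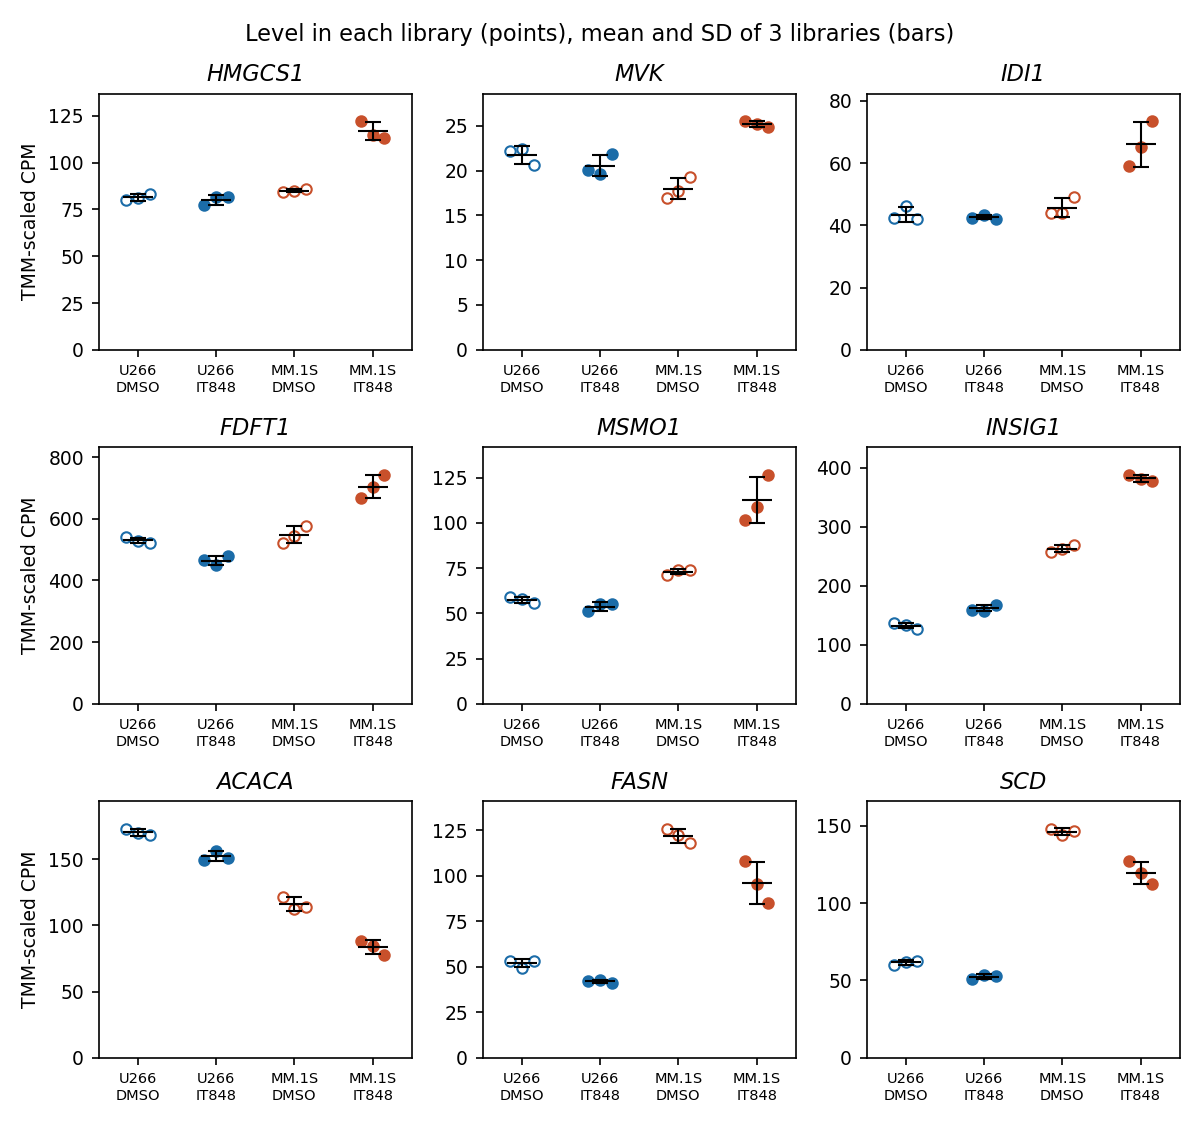
TMM-scaled CPM of 9 genes in each library of the 4 groups, with the mean and SD of 3 libraries. Open points are DMSO and filled points IT848 libraries. INSIG1 moved from a mean of 263 to 382 CPM in MM.1S and from 133 to 161.5 CPM in U266, whereas HMGCS1 moved from 85.1 to 117 CPM in MM.1S and stood at 81.5 and 80.2 CPM in U266.

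Genes of fatty acid synthesis fell in MM.1S at all 3 steps to palmitate. ACACA, the acetyl-CoA carboxylase that commits carbon to fatty acids, had 122, 112 and 114 CPM under DMSO and 88.5, 84.3 and 78.02 CPM under IT848 in MM.1S (−0.47 ± 0.05, adjusted p 4.2e-06). In U266 it had 173, 169.6 and 168 CPM under DMSO and 149.6, 156 and 151 CPM under IT848 (−0.16 ± 0.05, adjusted p 0.053). IT848 libraries lay below DMSO libraries in both lines, although the U266 change was just short of the threshold. FASN, which builds palmitate, had 126, 122 and 118 CPM under DMSO and 108, 95.6 and 84.9 CPM under IT848 in MM.1S (−0.34 ± 0.07, adjusted p 0.0013). Its U266 values were 53.4, 49.2 and 53.2 CPM under DMSO and 42.3, 42.7 and 40.96 CPM under IT848 (−0.31 ± 0.07, adjusted p 0.012). It fell in both lines with no overlap of libraries, and the IT848 libraries of MM.1S were more widely spread than those of U266. ACLY fell by 0.17 in MM.1S (SE 0.04, adjusted p 0.0014) and stood at −0.09 ± 0.04 in U266 (adjusted p 0.16).

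Library values moved with transcript length in both lines. Long transcripts were relatively high in the DMSO libraries and low in most IT848 libraries. In MM.1S, across 9377 genes, Spearman correlations of a library's deviation with length ran from 0.168 to 0.451 in the DMSO and from −0.484 to 0.0286 in the IT848 libraries. In U266, across 9260 genes, they ran from 0.00555 to 0.216 and from −0.277 to 0.123. The median length was 4357 bases for the fatty acid genes, 2318.5 for the sterol genes and 2837.5 for all genes tested. With a smooth length trend taken out, ACACA was at −0.28, FASN at −0.18, SCD at −0.19 and ACLY at −0.11 in MM.1S, and all 4 were still called lower. HMGCS1 was at 0.56, MSMO1 at 0.59 and INSIG1 at 0.55 in that fit, and the sterol counts became 11 higher and 5 lower. The fatty acid counts became 2 higher, with ACSL1 added (0.19, adjusted p 0.032), and 4 lower. In U266 the counts stayed at 1 sterol gene higher and 3 lower, and 0 fatty acid genes higher and 5 lower, with a fatty acid median of −0.20.

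Of the 5 elongation and desaturation genes, SCD, FADS1 and FADS2 fell in U266, and SCD fell in MM.1S. SCD, which puts the first double bond into saturated acyl chains, had 60.2, 61.8 and 62.9 CPM under DMSO and 50.6, 53.8 and 53.2 CPM under IT848 in U266 (−0.23 ± 0.05, adjusted p 0.0064). Its MM.1S values were 148, 144 and 147 CPM under DMSO and 127, 119 and 112 CPM under IT848 (−0.29 ± 0.05, adjusted p 0.00023). All IT848 libraries were below the DMSO libraries in both lines. Without the 2 libraries with reads of the other line, the U266 change was −0.21 (adjusted p 0.052).

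FADS2 had 139, 131 and 137 CPM under DMSO and 108, 108 and 114 CPM under IT848 in U266 (−0.31 ± 0.05, adjusted p 0.0011). In MM.1S, where it was low, it had 4.94, 4.53 and 4.34 CPM under DMSO and 5.07, 4.38 and 4.73 CPM under IT848 (0.03 ± 0.07, adjusted p 0.77). The groups were apart in U266 and overlapped in MM.1S. FADS1 had 63.00, 61.8 and 63.98 CPM under DMSO and 52.1, 55.1 and 54.2 CPM under IT848 in U266 (−0.23 ± 0.04, adjusted p 0.0042). MM.1S values were 15.7, 16.7 and 15.8 CPM under DMSO and 15.1, 15.3 and 14.6 CPM under IT848 (−0.10 ± 0.05, adjusted p 0.11). Its IT848 libraries were below the DMSO libraries in both lines, and the exon overlap with FADS2 given above holds for this fall too. The elongases ELOVL5 and ELOVL6 were called in neither line, with log2 changes of −0.07 ± 0.04 and −0.20 ± 0.06 in U266 and −0.05 ± 0.04 and 0.04 ± 0.06 in MM.1S.

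ACSL1 and ACSL3 attach coenzyme A to long-chain fatty acids. ACSL1 had 66.01, 66.1 and 68.8 CPM under DMSO and 53.5, 55.1 and 52.3 CPM under IT848 in U266 (−0.32 ± 0.07, adjusted p 0.0067), the largest absolute change of the 34 genes in that line. In MM.1S it had 46.4, 46.4 and 38.3 CPM under DMSO and 49.5, 50.01 and 44.9 CPM under IT848 (0.14 ± 0.07, adjusted p 0.12). The groups were separate in U266, downward, and overlapped in MM.1S. ACSL3 rose by 0.16 in MM.1S (SE 0.04, adjusted p 0.0092) and was at −0.01 ± 0.04 in U266.

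The difference between the lines' responses was tested as an interaction. It was called for 10 of 24 sterol genes, all more upward in MM.1S, and for 3 fatty acid genes, FADS2 and ACSL1 more upward and ACACA more downward in MM.1S. Over all genes tested the difference was called upward in MM.1S for 8.49% and downward for 8.94%. No sterol gene was called more downward in MM.1S by edgeR or DESeq2 with the length trend left in, and 1 had an unadjusted p below 0.05 in that direction. With the trend taken out, edgeR called 1, PMVK (−0.26, adjusted p 0.011). The 10 sterol genes were HMGCS1, MVK, IDI1, GGPS1, FDFT1, SQLE, CYP51A1, MSMO1, NSDHL and INSIG1. The largest difference was that of MSMO1 (0.71 ± 0.09, adjusted p 0.00016), followed by MVK (0.57 ± 0.09, adjusted p 0.00057), IDI1 (0.56 ± 0.10, adjusted p 0.002) and FDFT1 (0.55 ± 0.07, adjusted p 6.7e-05). INSIG1, which rose in both lines, rose more in MM.1S (0.26 ± 0.06, adjusted p 0.0068). For ACACA the difference was −0.31 ± 0.07 (adjusted p 0.0064) and, with the length trend taken out, −0.18 (adjusted p 0.025). For FASN, SCD and DHCR7, which fell in both lines, the differences of −0.03 ± 0.10, −0.06 ± 0.07 and 0.02 ± 0.08 were not called. Without the 2 libraries with reads of the other line, the differences of GGPS1 (0.35, adjusted p 0.083) and FADS2 (0.32, adjusted p 0.072) were not called, against 0.37 ± 0.10 and 0.34 ± 0.09 with them.

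The same libraries can be read as the gap between the lines before and after treatment. HMGCS1 stood at 81.5 ± 1.80 CPM in U266 and 85.1 ± 0.924 CPM in MM.1S under DMSO, a log2 difference of 0.06 ± 0.04. Under IT848 it stood at 80.2 ± 2.59 and 117 ± 4.85 CPM, a difference of 0.54 ± 0.04. FDFT1 likewise went from a difference of 0.05 ± 0.05 under DMSO to 0.60 ± 0.05 under IT848, and IDI1 from 0.07 ± 0.07 to 0.63 ± 0.07. MVK was lower in MM.1S under DMSO (−0.27 ± 0.06) and higher under IT848 (0.29 ± 0.06). Across the 34 genes the responses of the lines, which share no library, had a Pearson correlation of 0.453 and a Spearman correlation of 0.424. Over all 16782 genes these were 0.125 and 0.255. Genes are not independent replicates and each library enters all of them, so these are descriptions.

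Other genes around the routes were read from fixed lists. The shares over all genes tested, to be set beside each list count below, were 18.7% higher and 19.6% lower in MM.1S. In U266 they were 4.03% higher and 4.98% lower. The lists are short, so their counts are descriptions. Of 9 genes around SREBP processing and turnover, none was called in U266 (edgeR and DESeq2, with 1 upward at an unadjusted p below 0.05), and 4 rose and 3 fell in MM.1S. ERLIN1, an endoplasmic reticulum scaffold that restrains SREBP, fell by 0.26 in MM.1S (SE 0.05, adjusted p 0.00094). Of 4 genes that supply acetyl-CoA and NADPH, ME1, the cytosolic malic enzyme that yields NADPH, rose in both lines. Its mean was 22.04 ± 0.339 CPM under DMSO and 56.9 ± 1.49 CPM under IT848 in MM.1S (1.37 ± 0.05, adjusted p 3.9e-11), and 10.5 ± 0.175 and 16.6 ± 0.479 CPM in U266 (0.66 ± 0.05, adjusted p 1.1e-06). The change of ME1 was larger than that of any member in either line.

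Of 8 genes of the isoprenoid branches to dolichol, ubiquinone and protein prenylation, 1 rose and 2 fell in MM.1S, and none was called in U266 by edgeR or DESeq2, nor at an unadjusted p below 0.05. PDSS1, which makes the ubiquinone tail, was at −0.34 ± 0.08 in MM.1S (adjusted p 0.0055) and DHDDS, a dolichol synthase subunit, at 0.21 ± 0.05 (adjusted p 0.0021). Of 7 genes of sterol esters and transport, 3 rose in MM.1S, with NPC2, the lysosomal cholesterol carrier, at 0.43 ± 0.07 (adjusted p 0.00014). In U266 NPC1, its membrane partner, rose (0.21 ± 0.06, adjusted p 0.034) and LIPA, the lysosomal lipase, fell (−0.16 ± 0.04, adjusted p 0.032).

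Other genes of elongation and desaturation, 9 tested of 12 listed, rose at 3 and fell at 2 in MM.1S. ELOVL4, an elongase of very long chains, was at 0.38 ± 0.06 (adjusted p 0.00015) and HSD17B12, the ketoacyl reductase of elongation, at 0.34 ± 0.05 (adjusted p 0.00019). In U266, 1 of the 9 rose, FADS3 (0.46 ± 0.12, adjusted p 0.024). Of 4 other acyl-CoA synthetases, ACSS1, the mitochondrial acetyl-CoA synthetase, fell in U266 (−0.25 ± 0.04) and MM.1S (−0.45 ± 0.04). Of 12 genes of fatty acid oxidation, 1 fell in U266, and 4 rose and 1 fell in MM.1S. CPT1A, the gate of mitochondrial import, was the one that fell, at −0.33 ± 0.05 in U266 (adjusted p 0.00046) and −0.43 ± 0.05 in MM.1S (adjusted p 8.2e-06).

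Markers of other cell types were low. Of 6 markers of liver and fat cells, all were under 1 CPM in every group, with sums of at most 0.511 CPM. The T and NK cell markers summed to 2.63 to 3.82 CPM over the 4 groups, and the myeloid markers to 0.86 to 6.74 CPM. The 5 epithelial markers summed to 3.15 to 4.45 CPM in U266 and 1.08 to 1.98 CPM in MM.1S. Stromal markers moved with treatment in both lines, and the erythroid markers in MM.1S. The stromal sum over 6 genes was 28.1 to 32.9 CPM under DMSO and 35.5 to 43.6 CPM under IT848 in U266, and 15.9 to 20.4 and 23.4 to 29.6 CPM in MM.1S, and none of the 6 was at 0 in any group. Of these, COL3A1, a fibrillar collagen, rose in both lines (0.50 ± 0.12 in U266 and 0.49 ± 0.13 in MM.1S). The sum of 4 erythroid markers was 2.19 to 2.28 CPM under DMSO and 4.22 to 5.43 CPM under IT848 in MM.1S, where HBB, a globin, rose (1.21 ± 0.17, adjusted p 7.8e-05), and 0.743 to 1.55 and 1.06 to 1.16 CPM in U266. The part of these shifts in the changes of the 34 genes was not tested. The 6 plasma cell markers summed to lower levels after IT848 in both lines, 2453 to 2637 CPM under DMSO and 1781 to 1848 CPM under IT848 in U266, and 3584 to 3635 and 2456 to 2529 CPM in MM.1S, and their part was not tested either. IRF4, PRDM1, XBP1 and SDC1 fell in both lines. TNFRSF17 fell in U266 (−0.53 ± 0.07, adjusted p 0.00025) and rose in MM.1S (0.27 ± 0.07, adjusted p 0.0076), and MZB1 was called in neither (0.02 ± 0.08 and 0.02 ± 0.06).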

How the data were processed

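Each deposited table gives a count, an FPKM and a TPM for 51780 RefSeq transcripts. The submitters' processing notes name the build hg19 and the tools Trimmomatic 0.36, STAR 2.5.2b, bcl2fastq, and Subread 1.5.2 with its featureCounts. Its strand setting and its handling of reads with several alignments were not given in the sources used here. Per the file headers, the authors gave a read count for each transcript. The deposited FPKM is scaled to transcript length and library size and was used for levels of the most counted transcript. The deposited TPM was not used.

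Counts were summed per symbol and tested with the quasi-likelihood F test of edgeR 4.0.16 in R 4.3.3 (robust fit, TMM scaling, minimum count 10, a mean per group over 12 libraries). P-values were adjusted by Benjamini-Hochberg over 16782 genes, and a change was called below 0.05. SEs are the log2 change divided by the root of F. The test was checked on simulated counts. Alternatives were DESeq2 1.42.0, other scaling, filter, transcript, length, block and library choices. Promoter windows came from RefSeq on GRCh38.p14, and exon overlaps, by name, from GENCODE 29.

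The members and lists were chosen with earlier results of these data known. Library values are given for the 4 SREBP regulators, all members called in U266, and the 12 with the largest changes in MM.1S. The 8 largest differences between untreated lines are named, and at most 4 genes per other list.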

Additional observations from a re-analysis of the deposited data

Results flagged for a closer look

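The IT848 responses of the lines differed, by the interaction test, for 13 of the 34 genes, 12 more upward and 1 more downward in MM.1S. The shares over all genes tested were 8.49% upward and 8.94% downward. As log2 response in MM.1S minus U266, the sterol values were 0.48 ± 0.06 for HMGCS1, 0.57 ± 0.09 for MVK, 0.56 ± 0.10 for IDI1, 0.37 ± 0.10 for GGPS1, 0.55 ± 0.07 for FDFT1, 0.52 ± 0.09 for SQLE, 0.35 ± 0.06 for CYP51A1, 0.71 ± 0.09 for MSMO1, 0.33 ± 0.07 for NSDHL and 0.26 ± 0.06 for INSIG1. The fatty acid values were −0.31 ± 0.07 for ACACA, 0.34 ± 0.09 for FADS2 and 0.46 ± 0.10 for ACSL1. FDFT1 was called in both lines with opposite signs, although its U266 call was lost in 5 of the fits with single libraries left out. For SQLE, MSMO1 and NSDHL all 3 IT848 libraries were above the DMSO libraries in MM.1S and below them in U266.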

How the results depend on the processing

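Of the calls among the 34 genes, 16 of 18 in MM.1S, 5 of 9 in U266, 11 of 13 for the difference of the responses and 27 of 29 between the untreated lines held in every alternative run. Lost in at least 1 were LBR and DHCR7 in MM.1S, FDFT1, NSDHL, DHCR7 and SCD in U266, GGPS1 and FADS2 for the difference, and DHCR7 and ACLY between the lines (0.141, adjusted p 0.060, and 0.0929, adjusted p 0.072, without the 2 libraries with reads of the other line). FDPS in MM.1S, once the length trend was removed, turned from 0.02 to −0.095 (adjusted p 0.021). DESeq2 called 8 fatty acid genes in U266 in place of 5. The sterol median in U266 (−0.036) was −0.047 with DESeq2 and with RLE scaling, −0.045 with the length trend out, and −0.055 to −0.034 with single libraries left out. Without the 2 libraries with reads of the other line, 924 genes in place of 1512 were called in U266, of them 1 sterol gene in place of 4, and 1712 in place of 2924 for the difference. With single libraries left out, 986 to 1827 genes and 1 to 5 sterol genes were called in U266. The lowest counts came without U266 DMSO replicate 3, and the sterol count was also 1 without U266 IT848 replicate 2 and 2 without IT848 replicate 1. In MM.1S the ranges were 5110 to 6681 genes, 12 to 15 sterol genes and 5 to 6 fatty acid genes. Without MM.1S IT848 replicate 3, the MM.1S change was 0.54 for MSMO1, 0.49 for HMGCS1, −0.42 for ACACA and −0.25 for FASN, all still called. The cause of these shifts was not tested. With the replicate block, 4388 genes were called for the difference and 2155 in U266. Correlations of same-numbered deviations were 0.270, 0.223 and −0.0673 in U266 and 0.510, −0.148 and 0.510 in MM.1S. Differently numbered ones ran from −0.269 to 0.126 in U266 and from −0.551 to 0.128 in MM.1S. Whether replicate numbers mark pairs was not tested. All 34 genes passed the filter on low counts.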
